A study of Mus musculus with 21 samples.

Results

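Splenic CD4+ T cells taken 4 h after a low dose of antigen were compared with T cells from control mice, across all genes. The comparison is defined by its groups and holds 6 of the 21 libraries of the series, 3 from mice given 0.8 µg of the [4Y] MBP peptide and 3 from the control group, which the labels call untreated. All mice carried the same alleles: the Tg4 transgenic T cell receptor, which recognises a peptide of myelin basic protein (MBP), the Nr4a3-Tocky reporter and the Tiger Il10-GFP reporter. Peptide was given under the skin without adjuvant, and the [4Y] form carries a tyrosine substitution that strengthens its binding to MHC class II. Per the study's methods, cells from immunised mice at 4 h were sorted as Nr4a3-Blue+Red−, whereas the gate used for the control cells is not given in the sources used here. Mice of both sexes were used. Because the reporter is driven by Nr4a3, cells were in effect selected on that gene, and its difference between the groups is given below as a check of the labels and not as a finding. The transgenic receptor gives nearly all of these cells one antigen specificity, and the other groups (80 µg at 4 h, both doses at 12 h and at 24 h) enter only where they show where the low dose at 4 h differs.

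Engagement of the T cell receptor activates calcium and calcineurin signalling to NFAT, MAP kinase signalling to AP-1 and protein kinase C signalling to NF-κB. Within hours these pathways switch on transcription factors of the NR4A, EGR, IRF and MYC families, cytokine genes and receptors such as CD69, CD25 and 4-1BB. A resting T cell in turn depends on genes that hold it in quiescence, on IL-7 for survival and on CCR7 and S1PR1 to circulate through lymphoid tissue, and many of these are switched off as the cell starts to grow. The comparison asks how much of this programme was in place in Nr4a3-Blue+Red− cells 4 h after the lower of the 2 doses given. Only such cells were taken from the immunised mice. For every gene, an effect of the peptide and the selection of responding cells therefore cannot be told apart.

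The libraries were made with QuantSeq, a method that reads only the 3′ ends of mRNA. The control libraries held 2352800 to 3278354 counts and the 0.8 µg 4 h libraries 2715246 to 3796871, with 13134 to 13802 and 12780 to 13313 genes detected. The gene Gm42418, which overlaps ribosomal RNA, took 24.0 to 24.7% of the counts in control and 18.1 to 22.8% at 0.8 µg 4 h, and mitochondrial genes took 7.26 to 7.52% and 5.91 to 6.48%. Markers of other cell types were examined as well. The summed level of 15 B cell markers was 509 to 714 CPM (counts scaled to 1000000 per library) in control and 91.0 to 161 CPM at 0.8 µg 4 h, with 6 of them called lower (Ighm, Ighd, H2-Aa, H2-Ab1, Ebf1 and Bank1), 0 called higher and Cd79a at 0 in the immunised libraries. The sums of 17 myeloid and dendritic cell markers were 207 to 257 CPM and 87.8 to 130 CPM, with 2 called lower (Itgam and Ctss), 0 called higher, Zbtb46, Xcr1 and Clec9a at 0 in both groups and Cd14 at 0 at 0.8 µg 4 h. In bulk RNA, fewer cells of a type and less RNA per cell cannot be told apart. The myeloid sum rests largely on Ctss, with 662, 663 and 390 counts in control and 245, 169 and 199 at 0.8 µg 4 h. Other myeloid markers moved both ways, such as Itgam (7, 17 and 8 to 4, 3 and 0) and Lyz2 (13, 12 and 7 to 80, 53 and 8, not called). The B cell sum and Ctss moved in the same direction as the groups of lower genes described below. The part of B and myeloid cells in those results was not tested. Of 10 CD4+ T cell markers, 5 were called lower (Cd3d, Cd3g, Thy1, Cd28 and Lck), of which Cd3d and Cd28 were at the threshold, and the sum of the 10 was 3988 to 4232 CPM in control and 2227 to 2401 CPM at 0.8 µg 4 h. Cd3e, Cd4 and Trac, which define the cell, were counted in every library, so the labelled cell type was present in both groups. These 3 were not called, but Cd3e was lower by less than the fold threshold (log2 fold change -0.45). Trbc2 (-0.99) and Cd5 (-0.68) were likewise lower by less than it, all 3 at a DESeq2 adjusted p below 0.05.

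Counts were fitted with DESeq2 over all 21 libraries, and called genes are those with a shrunken log2 fold change beyond 1 in either direction at an adjusted p (Benjamini-Hochberg) below 0.05. Values per library are normalised counts, that is, counts divided by the DESeq2 size factor of the library, and each ± is the standard error of a shrunken log2 fold change unless SD is stated (n = 3 mice per group). Of 13518 genes tested, 5502 were called, which is 40.7% of them. Called genes were higher at 0.8 µg 4 h in 2340 cases (17.3%) and lower in 3162 cases (23.4%). At an adjusted p under 0.05 without the fold threshold, 7376 genes differed (54.6%). Groups did not overlap in 5355 of the called genes, beside 61.9% of all genes tested that did not overlap. Changes beyond 3 on the log2 scale were made by 1126 genes (8.33%), of which 303 were higher and 823 lower. Loss of signal was therefore the more frequent direction, and its excess was larger among the big changes than among all called genes. Of the called higher genes, 238 had every control library at or under the floor of 3 counts, and 683 of the called lower genes had every 0.8 µg 4 h library there. For such genes the difference is given below as a bound against that floor (3 counts per library). By biotype, 2129 of 11008 protein-coding genes were higher and 2744 lower, whereas 24 of 266 long intergenic noncoding RNAs were higher and 80 lower, and 28 of 260 antisense genes were higher and 60 lower. Of 606 processed pseudogenes 40 were higher and 15 lower.

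**Figure D1:**
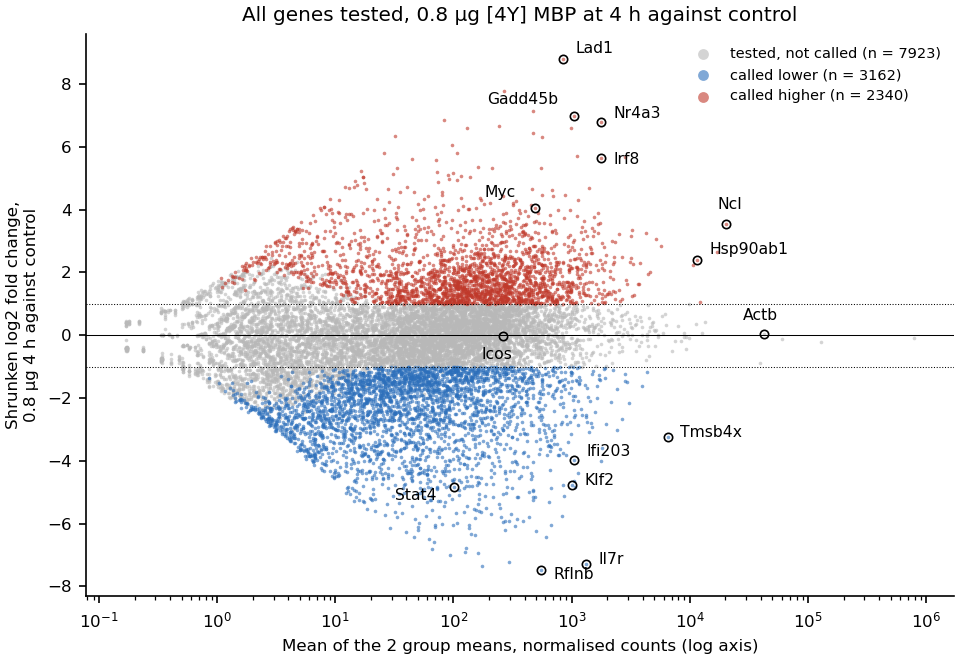
Each point is a gene that was tested and had counts in the 6 libraries, with the mean of the 2 group means in normalised counts on a log axis (x) and the shrunken log2 fold change of 0.8 µg 4 h against control (y). Red points are the 2340 genes called higher, blue points the 3162 called lower and grey points those not called, dotted lines mark a log2 fold change of 1 in each direction, and 15 genes are circled and named, from Lad1 at the top to Rflnb at the bottom.

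Several of the genes that rose furthest had few counts in control cells. Lad1, which encodes the basement membrane protein ladinin, had 2.06, 1.01 and 4.28 normalised counts in control and 1917, 1377 and 1747 at 0.8 µg 4 h. Its neighbour on the same strand of chromosome 1, Tnnt2, encodes cardiac troponin T and had 2.06, 1.01 and 1.43 in control and 616, 437 and 546 at 0.8 µg 4 h. Lad1 lies at chr1:135818598-135833342 and Tnnt2 at chr1:135836354-135852260 (GRCm38). In both genes the groups were far apart, at least 484-fold for Lad1 and at least 154-fold for Tnnt2. Mir155hg, the host transcript of the microRNA miR-155, had 6.18, 1.01 and 9.99 in control and 978, 1025 and 831 at 0.8 µg 4 h, a log2 fold change of 7.15 ± 0.35 (DESeq2 adjusted p = 4.81e-74). Its exon holds that of Mir155, so reads of either are not separated. Gadd45b, a stress-inducible regulator of MAP kinase signalling, had 13.4, 11.2 and 22.8 in control and 2223, 2029 and 2018 at 0.8 µg 4 h (6.97 ± 0.26). Hivep3, a large zinc finger protein that binds κB-like sites and has one of the largest gains in counts, rose by 5.66 ± 0.17, from 119, 84.2 and 116 to 5349, 6044 and 5124. In each of these genes every immunised library lay above every control library. The ranking by fold change required separate groups of every gene it named, so for those genes this is no added evidence.

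The same ranking named enzymes and surface proteins besides regulators. Bcat1, the cytosolic branched-chain aminotransferase, was at least 74.1-fold higher, and Shmt1, the cytosolic serine hydroxymethyltransferase of one-carbon metabolism, had 6.18, 11.2 and 11.4 in control and 914, 945 and 955 at 0.8 µg 4 h (6.45 ± 0.28). Sema7a, a membrane-bound semaphorin, rose by 5.81 ± 0.51. Spry1, an inhibitor of receptor-to-Ras signalling, rose by 6.05 ± 0.52. Tex15, Icam5 and Utf1 are best known from germ cells, neurons and embryonic stem cells. They had 0 counts in each control library and rose at least 48.1-fold, at least 18.6-fold and at least 14.8-fold. Exons of Bcat1, Shmt1, Icam5 and Spry1 overlap annotated genes on the opposite strand, and the strand setting of the counting step is not given in the sources used here.

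At the other end, the genes that fell furthest were close to silent after 4 h. Rflnb (refilin B, an actin-filament regulator) had 1002, 1110 and 1198 normalised counts in control and 1.01, 9.22 and 5.39 at 0.8 µg 4 h, a log2 fold change of -7.49 ± 0.37 (DESeq2 adjusted p = 4.85e-72). Il7r, the IL-7 receptor α chain on which resting T cells depend, had 2505, 3272 and 2104 in control and 12.1, 18.4 and 12.9 at 0.8 µg 4 h (-7.29 ± 0.33). Arl4c, a small GTPase of the ARF family, had 1303, 1013 and 1252 in control and 11.1, 10.5 and 16.2 at 0.8 µg 4 h (-6.43 ± 0.28). These 3 genes lost nearly all of their counts in each of the immunised mice. Gm14085 was at least 103-fold lower, Itgb3 (integrin β3) at least 94.4-fold, Card6 at least 82.0-fold and Cep97 (a centriolar protein) at least 74.3-fold. Smpdl3a, Myo6, Ifit1bl1, Slc16a5 and Ncmap were at least 54.7-fold, 39.8-fold, 38.9-fold, 36.2-fold and 27.3-fold lower.

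Genes were also ranked by absolute difference in counts. Ncl (nucleolin, a nucleolar RNA-binding protein) had 3103, 3396 and 2999 in control and 37936, 36827 and 37312 at 0.8 µg 4 h, a log2 fold change of 3.55 ± 0.09. Ccnd2 (cyclin D2) rose from 4640, 4738 and 4645 to 29474, 28552 and 29961 (2.64 ± 0.11). Besides Hivep3, the other genes with the largest gains in counts were Hsp90ab1 (2.38), Serbp1 (2.22), Npm1 (2.83), Ptprc (1.05, or 0.90 and not called with scaling by total counts), Ddx21 (3.07), Hspa5 (3.24) and Nfkbia (2.02), all log2 fold changes of called genes. They encode chaperones, nucleolar proteins, an mRNA-binding protein (Serbp1), the phosphatase CD45 and the NF-κB inhibitor IκBα. The largest losses in counts were those of Tmsb4x (thymosin β4, which binds monomeric actin), from 11339, 10012 and 13902 to 1014, 1429 and 1112 (-3.26 ± 0.25), and of Shisa5 (-1.61), Smc4 (-2.67), Macf1 (-2.16), Bcl11b (-3.01), Satb1 (-1.18), Fyb (-3.99), Gm8995 (-3.60), Akap13 (-2.82) and Jak1 (-1.48). Among them Bcl11b and Satb1 are factors of T cell identity, and Fyb encodes the adaptor ADAP that links the T cell receptor to integrins. Small nucleolar RNAs lie in exons of Ncl, and other genes overlap exons of Ccnd2, Serbp1, Satb1, Fyb and Jak1 on the opposite strand, and of Satb1, Fyb and Hivep3 on the same strand.

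A further set of abundant genes stayed within narrow bounds. Among genes without a significant difference whose mean reached 500 normalised counts, those with the narrowest intervals included Ddx5, Arpc2, Rpl4, Eef1a1, Rps28, Rpl32 and B2m. B2m, the β2-microglobulin chain of MHC class I, had 8877, 9676 and 10063 in control and 8636, 9216 and 9315 at 0.8 µg 4 h, and the 95% interval of its unshrunken log2 fold change ran from -0.22 to 0.07. Actb, which codes for β-actin, had a log2 fold change of 0.02 ± 0.09, with an interval from -0.16 to 0.20. For B2m and Actb the groups overlapped, and larger changes lie outside the stated 95% intervals.

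Immediate-early and activation-induced transcription factors were the first group examined. Of 35 members tested, 24 were called higher and 3 lower, beside 17.3% and 23.4% of all genes. The median log2 fold change was 2.23 (2.10 with genes at the floor set to their bound), beside -0.13 for all genes tested. The members of this and the later lists were chosen with earlier results of these data known, so the share of a list is a description and not independent evidence of its direction. Nr4a1, an orphan nuclear receptor induced by NFAT and MEF2, had 18.6, 26.4 and 64.2 normalised counts in control and 1876, 2466 and 2184 at 0.8 µg 4 h (5.69 ± 0.39, DESeq2 adjusted p = 4.86e-46). Nr4a2 had 4.12, 2.03 and 5.71 in control and 422, 559 and 454 at 0.8 µg 4 h (6.65 ± 0.42). Nr4a3, on which the cells were sorted, had 37.1, 28.4 and 12.8 in control and 3510, 3649 and 3450 at 0.8 µg 4 h, which goes with the labels. The groups were separate in all 3 members of the family.

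The 3 Nr4a promoters share a feature that the counts did not use. Their 250 bases before the RefSeq start each hold 4 copies of TGACG, the half-site of the cyclic AMP response element that CREB and related factors bind, counted on both strands. In the RefSeq table of promoters (GRCm38.p6), 27025 promoters of this length were searched, and 17.9% held the half-site at least once and 0.152% (41 promoters) held it 4 or more times. The Nr4a1 and Nr4a2 promoters are shown because these 2 genes rose without being the gene of the sort, with the half-sites in capitals on either strand. That of Nr4a1 is at chr15:101266596-101266845 (plus strand), in an intron of a longer Nr4a1 transcript, and that of Nr4a2 at chr2:57124004-57124253 (minus strand), outside annotated genes.
Nr4a1: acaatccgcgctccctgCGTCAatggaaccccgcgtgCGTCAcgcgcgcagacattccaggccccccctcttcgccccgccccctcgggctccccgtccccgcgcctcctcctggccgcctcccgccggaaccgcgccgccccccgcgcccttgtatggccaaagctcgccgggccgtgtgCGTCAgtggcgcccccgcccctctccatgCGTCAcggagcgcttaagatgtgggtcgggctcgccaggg
Nr4a2: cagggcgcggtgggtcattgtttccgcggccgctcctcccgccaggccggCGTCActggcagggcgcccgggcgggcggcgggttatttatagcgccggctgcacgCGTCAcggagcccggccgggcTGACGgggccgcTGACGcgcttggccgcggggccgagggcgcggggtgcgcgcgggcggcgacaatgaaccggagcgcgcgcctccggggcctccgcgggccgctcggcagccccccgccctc
Of the 29 members of the list with a promoter in the table, 12 (41.4%) held the half-site, as did 32.7% of promoters of called higher genes, 24.2% of called lower genes and 29.1% of genes tested and not called. The palindrome TGACGTCA, which contains the half-site on each strand, was in 0 of the 29. The half-site was chosen for the search after these sequences had been seen, and a match of letters is a description and not a site of binding.

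The interferon regulatory factors of this list, both partners of AP-1 and ETS factors in lymphocytes, rose by a similar margin. Irf4 had 11.3, 12.2 and 14.3 in control and 1016, 1429 and 909 at 0.8 µg 4 h (6.31 ± 0.27). Irf8 had 99.0, 53.7 and 42.8 in control and 3172, 4306 and 2890 at 0.8 µg 4 h (5.65 ± 0.17, DESeq2 adjusted p = 5.84e-228). In both, the lowest immunised library lay far above the highest control library. Myc, the driver of growth and ribosome production, rose by 4.06 ± 0.23, from 41.2, 51.7 and 68.5 to 813, 1070 and 871. Bhlhe40, a repressor linked to cytokine production, rose by 4.43 ± 0.45. Of the AP-1 family, Fosl2 (4.05 ± 0.42), Batf (2.68 ± 0.23), Fos (2.23 ± 0.47) and Junb (1.26 ± 0.16) were called higher, and Fosl1 was at least 4.63-fold higher. Jun itself went the other way and had 95.9, 152 and 99.9 in control and 36.3, 31.6 and 45.3 at 0.8 µg 4 h (-1.57 ± 0.35). The EGR factors Egr1 (1.63 ± 0.23) and Egr2 (2.57 ± 0.36) rose by less than the NR4A and IRF factors, and Egr3 was at least 5.44-fold higher. Besides Jun, the members called lower were Klf6 (-2.77 ± 0.20), a Krüppel-like factor, and Gadd45a (-3.03 ± 0.79), while Gadd45b was among the genes that rose furthest.

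Components of the pathways that lead to these factors moved in both directions. Of 17 NFAT and calcineurin genes tested, 4 were called higher and 7 lower (23.5% and 41.2%, against 17.3% and 23.4% of all genes). Nfatc1, whose promoter NFAT itself induces, had 413, 409 and 418 in control and 2445, 2697 and 2417 at 0.8 µg 4 h (2.60 ± 0.09). Nfatc2, the NFAT protein of resting T cells, had 188, 129 and 183 in control and 17.2, 13.2 and 18.3 at 0.8 µg 4 h (-3.25 ± 0.30). The family member of resting cells and the inducible one thus moved in opposite directions. Genes of calcium entry also moved both ways: the channel Orai1 rose (2.76 ± 0.17) and Orai2 fell (-4.77 ± 0.33), and of the calcium sensors Stim1 fell (-2.96 ± 0.24) and Stim2 rose (1.12 ± 0.18). Rcan1, a feedback inhibitor of calcineurin, rose by 1.46 ± 0.39.

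Of 24 NF-κB pathway genes, 12 were called higher and 5 lower, beside 17.3% and 23.4% of all genes, with a median log2 fold change of 1.26. The subunits Rel (3.90 ± 0.14), Nfkb2 (3.47 ± 0.20), Relb (2.87 ± 0.21) and Nfkb1 (2.80 ± 0.11) all rose. So did the inhibitors that NF-κB induces: Nfkbid had 99.0, 96.3 and 111 in control and 2750, 2658 and 2730 at 0.8 µg 4 h (4.70 ± 0.17), and the deubiquitinase Tnfaip3 (A20) rose by 3.88 ± 0.22. Tnip3, a partner of A20, had 0 counts in each control library and 60.6, 92.2 and 30.2 at 0.8 µg 4 h, at least 17.6-fold higher. Malt1, a protease and adaptor that connects the receptor to this pathway, went down (-1.35 ± 0.20). Cyld, a deubiquitinase that restrains the pathway, was lower too (-1.94 ± 0.14).

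Feedback regulators of Ras and MAP kinase signalling were split, with 10 of 24 called higher and 9 lower (41.7% and 37.5%, against 17.3% and 23.4% of all genes). The phosphatases Dusp5 (3.99 ± 0.14) and Dusp2 (2.58 ± 0.23) rose, as did Spry1, and Dusp4 was at least 7.67-fold higher. Dusp6, the cytoplasmic ERK phosphatase, was lower (-1.29 ± 0.43). Rasa3, a GTPase-activating protein that switches off Ras and Rap1, had 711, 678 and 640 in control and 18.2, 17.1 and 17.3 at 0.8 µg 4 h (-5.17 ± 0.28). Rgs14 (-4.76 ± 0.46) and Rasal3 (-4.02 ± 0.19) also fell.

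Of 43 genes of the receptor complex and its proximal enzymes, 18 were called lower, 5 higher and 20 not called, beside 23.4% lower and 17.3% higher among all genes, with a median of -0.69. Several of the deepest losses were in genes that restrain signalling. Dgka, the diacylglycerol kinase α that limits Ras activation, had 1992, 2058 and 2171 in control and 76.7, 65.9 and 70.1 at 0.8 µg 4 h (-4.84 ± 0.15). Sit1, an inhibitory membrane adaptor, fell by 5.11, and Sla2, an adaptor that lowers receptor levels, fell by 4.14. Txk, a Tec family kinase, had 805, 867 and 998 in control and 35.3, 39.5 and 41.0 at 0.8 µg 4 h (-4.49 ± 0.19). Among the core components, Lck (-1.16 ± 0.08), Cd3g (-1.21 ± 0.17) and Cd247 (-1.47) were lower. The kinase Zap70 rose from 288, 314 and 240 to 1088, 1124 and 997 (1.91 ± 0.11). The E3 ligase Cblb, which raises the threshold of activation, rose by 1.34 ± 0.19. Trac, the constant region of the receptor α chain, did not differ (0.05 ± 0.10, interval -0.15 to 0.26). Both constant regions of the β chain were lower, Trbc1 from a mean of 2388 to 998 (-1.25 ± 0.08). Trbc2 went from 2612 to 1314 (-0.99 ± 0.08), just under the threshold.

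Receptors of activation and costimulation had 14 of 25 members called higher and 2 lower, beside 17.3% and 23.4% of all genes, and a median of 1.73 (1.39 with genes at the floor at their bound). Tnfrsf9, which encodes the costimulatory receptor 4-1BB, had 18.6, 7.10 and 24.3 in control and 1976, 1806 and 2050 at 0.8 µg 4 h (6.59 ± 0.40, DESeq2 adjusted p = 1.55e-57). Il2ra (CD25, the IL-2 receptor α chain) had 76.3, 25.4 and 50.0 in control and 1340, 1632 and 998 at 0.8 µg 4 h (4.62 ± 0.25). Cd69, the early activation antigen that retains cells in tissue, had 209, 220 and 174 in control and 2011, 2474 and 2218 at 0.8 µg 4 h (3.45 ± 0.15). No library of one group reached the range of the other in these 3 genes. Tnfrsf4 (OX40) rose from 48.4, 28.4 and 44.3 to 342, 316 and 260 (2.87 ± 0.26). Tfrc, the transferrin receptor, rose by 4.45 ± 0.15, the self-ligand receptor Slamf1 by 3.82 ± 0.15, Cd200 by 3.32 ± 0.30 and Tnfrsf18 (GITR) by 2.08. Icos, a CD28-family receptor that promotes helper function, had 301, 267 and 220 in control and 253, 336 and 189 at 0.8 µg 4 h. Its groups overlapped, and the 95% interval of its log2 fold change was -0.41 to 0.35 (DESeq2 adjusted p = 0.925). Cd28 was at the edge of the threshold (-1.01 ± 0.10), and Cd27 did not differ (-0.04 ± 0.11).

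Of 13 coinhibitory receptors and ligands, 5 were called higher and 3 lower (38.5% and 23.1%, against 17.3% and 23.4% of all genes). Pdcd1, which encodes PD-1, had 6.18, 3.04 and 7.14 in control and 105, 121 and 86.3 at 0.8 µg 4 h (4.03 ± 0.41). Both ligands of PD-1 rose as well, Cd274 (PD-L1) from 29.9, 25.4 and 45.7 to 611, 580 and 620 (4.16 ± 0.21) and Pdcd1lg2 (PD-L2) by 4.00 ± 0.47. Cd160 rose by 4.88 ± 0.47 and Vsir (VISTA) by 1.66 ± 0.28. Ctla4, an inhibitory counterpart of CD28, was lower, at 18.6, 7.10 and 31.4 in control and 4.04, 5.27 and 1.08 at 0.8 µg 4 h (-1.99 ± 0.58). The groups of Ctla4 did not overlap, though edgeR did not call it, and Cd96 (-3.13 ± 0.24) and Lair1 (-3.16 ± 0.55) fell with it. Lag3, Tigit and Havcr2 were at or under the floor of 3 counts in both groups, so that no difference could be read.

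**Figure D2:**
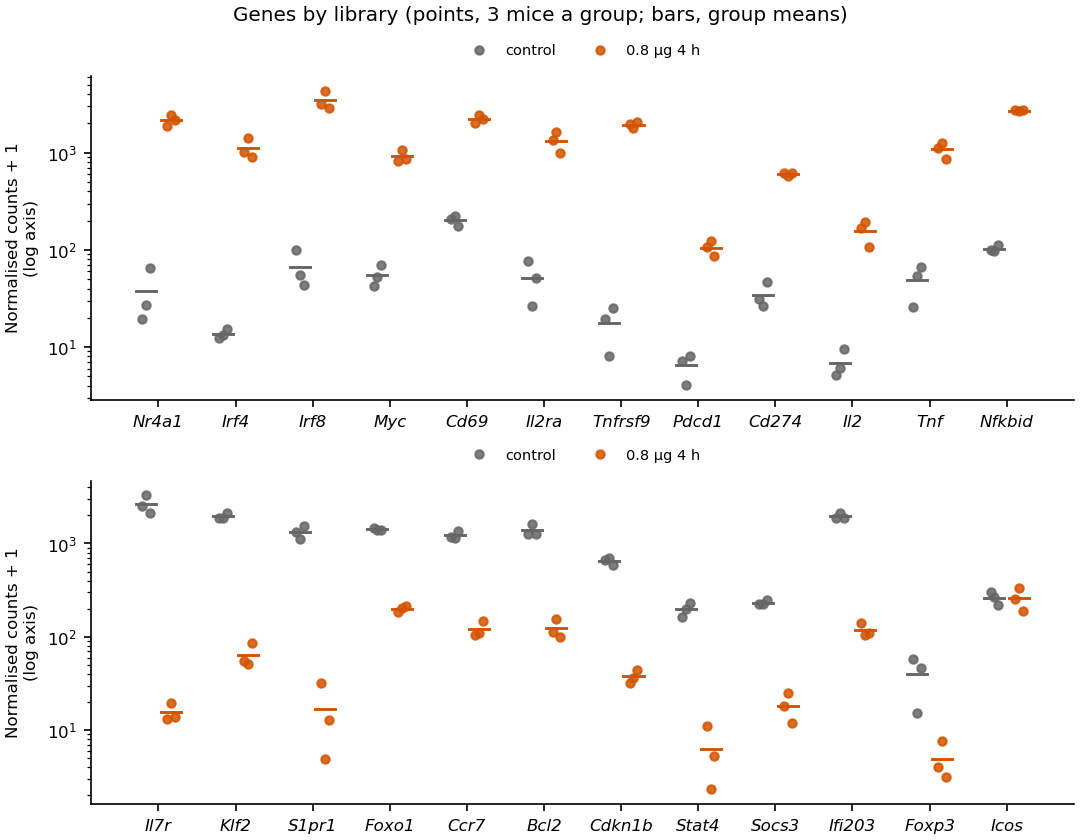
Each point is one library, with normalised counts + 1 on a log axis (y) for 12 genes per panel (x); grey points are the 3 control mice, orange points the 3 mice given 0.8 µg and taken at 4 h, and bars are group means. In the upper panel, from Nr4a1 to Nfkbid, every orange point lies above every grey one, and in the lower panel the order is turned for each gene from Il7r to Foxp3, while the points of Icos overlap.

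Cytokine and chemokine genes followed, with 14 of 28 tested called higher and 5 lower, beside 17.3% and 23.4% of all genes. The median was 1.22, or 0.56 with the 10 genes at the floor at their bound. Il2, the growth factor of newly activated T cells, had 4.12, 5.07 and 8.56 in control and 169, 191 and 106 at 0.8 µg 4 h (4.46 ± 0.45). Tnf had 24.7, 52.7 and 65.7 in control and 1106, 1266 and 871 at 0.8 µg 4 h (4.46 ± 0.25). Other members of the TNF superfamily rose with it, Tnfsf14 (LIGHT) by 5.07 ± 0.39, Fasl by 4.31 ± 0.33, Lta by 3.59 ± 0.22 and Cd40lg, the helper signal to B cells, by 1.37 ± 0.18. Xcl1, which attracts cross-presenting dendritic cells, was at least 25.2-fold higher. Il16 fell from 515, 513 and 522 to 25.2, 27.7 and 20.5 (-4.34 ± 0.24), Ccl5 by 2.95 and the death ligand Tnfsf10 (TRAIL) by 3.47. Il10, the gene of the GFP reporter, had 3.09, 0 and 9.99 in control and 0 in each library at 0.8 µg 4 h. It was called lower, but its groups overlapped at 0 and its call was lost when only the 6 libraries were fitted, with limma and without control replicate 3. Il21 had between 0 and 2.03 in every library and was not called.

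Of 27 receptors for cytokines, 14 were called lower, 3 higher and 10 not called, beside 23.4% lower and 17.3% higher among all genes, with a median of -1.35 (-1.05 with genes at the floor at their bound). After Il7r, the largest loss was that of Il18r1, from 158, 164 and 178 to 6.06, 2.63 and 0 (-5.33 ± 0.52). Il6ra had 1056, 1096 and 1201 in control and 118, 182 and 160 at 0.8 µg 4 h (-2.85 ± 0.17). Both chains of the interferon γ receptor were lower, Ifngr1 at -3.23 ± 0.25 and Ifngr2 at -2.95 ± 0.37, and Tgfbr2 fell by 2.32. The 3 exceptions belong to other cytokines: Il2rb, shared by the IL-2 and IL-15 receptors, rose by 1.43 ± 0.19, Il15ra by 2.66 ± 0.49, and Il12rb1 at least 3.90-fold. Il4ra did not differ (0.22 ± 0.15).

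Downstream of these receptors, 9 of 24 JAK, STAT and SOCS genes were higher and 6 lower (37.5% and 25.0%, against 17.3% and 23.4% of all genes). The STAT family divided. Stat5a, which carries IL-2 signals, had 135, 129 and 104 in control and 1163, 1421 and 1105 at 0.8 µg 4 h (3.30 ± 0.14), and Stat3 rose by 1.36 ± 0.15. Stat4, which carries IL-12 signals, had 162, 199 and 227 in control and 10.1, 1.32 and 4.32 at 0.8 µg 4 h (-4.84 ± 0.36, DESeq2 adjusted p = 5.59e-34). Stat2 fell by 2.24, while Stat5b (-0.08 ± 0.16) did not differ. Cish, a STAT5-induced inhibitor, had 34.0, 77.1 and 55.7 in control and 823, 858 and 698 at 0.8 µg 4 h (3.79 ± 0.20). Socs3, which limits IL-6 signalling, went from 224, 223 and 244 to 17.2, 23.7 and 10.8 (-3.51 ± 0.46). The kinases Pim3 (3.22 ± 0.21) and Jak2 (2.62 ± 0.15) rose. An exon of Stat4 overlaps that of Gm28177 on the same strand.

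Most genes of quiescence and naive identity had lower RNA. Of 41 tested, 32 were called lower and 1 higher, beside 23.4% and 17.3% of all genes, with a median of -3.10. Rflnb, Il7r and Arl4c, given above among the genes that fell furthest, are members of this list. The list was drawn up with earlier results of these data known, so its share is a description. Klf2, the factor that maintains quiescence and the expression of S1pr1, had 1862, 1879 and 2128 in control and 53.5, 50.1 and 84.2 at 0.8 µg 4 h (-4.77 ± 0.39). Its partner in this programme Foxo1 fell from 1452, 1396 and 1390 to 184, 200 and 214 (-2.82 ± 0.12). Txnip, an inhibitor of glucose uptake, had 778, 989 and 1172 in control and 5.05, 17.1 and 6.47 at 0.8 µg 4 h (-6.23 ± 0.53). Tcf7 (-2.01 ± 0.13) and Lef1 (-2.11 ± 0.11), the factors of naive and memory T cells, fell by less, and Tcf7 still had 625, 617 and 686 at 0.8 µg 4 h. Bcl2, the survival protein that IL-7 maintains, went from 1273, 1620 and 1258 to 111, 155 and 99.3 (-3.48 ± 0.20). The cell-cycle brakes Cdkn1b (p27, -4.09 ± 0.22) and Rbl2 (p130, -4.52 ± 0.29), the growth factor binding protein Igfbp4 (-5.75 ± 0.27) and Pik3ip1, an inhibitor of PI3 kinase (-5.06 ± 0.32), were lower too. Slfn2, a Schlafen protein needed for quiescence, was the member called higher (1.03 ± 0.12), a call that was lost without control replicate 3 (0.99) and with scaling by total counts (0.88). Bach2 and Foxp1, which also restrain activation, had log2 fold changes of 0.55 each and were under the threshold.

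Homing and egress genes overlapped with this group in function. Of 27 tested, 15 were called lower and 3 higher, beside 23.4% and 17.3% of all genes, with a median of -2.14 (-1.81 with genes at the floor at their bound). S1pr1, the sphingosine 1-phosphate receptor needed to leave lymphoid tissue, had 1322, 1129 and 1532 in control and 31.3, 3.95 and 11.9 at 0.8 µg 4 h (-6.05 ± 0.44). Ccr7, the receptor for lymph node chemokines, went from 1173, 1139 and 1363 to 104, 108 and 147 (-3.33 ± 0.16). Both lost most of their RNA in every immunised mouse. The integrin chains Itga6 (-5.78), Itgb7 (-5.01) and Itga4 (-3.48) fell as well, and so did Selplg, the P-selectin ligand (-5.16). The 3 that rose were Gpr183 (EBI2, 2.73 ± 0.10) and Cxcr5 (2.36 ± 0.30), which position cells at and in B cell follicles, and Icam1 (2.90 ± 0.26). Cxcr5 is also expressed by B cells, whose markers were lower. The Gimap GTPases, which support lymphocyte survival, had 7 of 8 members called lower with a median of -2.03, and Gimap5 did not differ (0.04 ± 0.17).

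**Figure D3:**
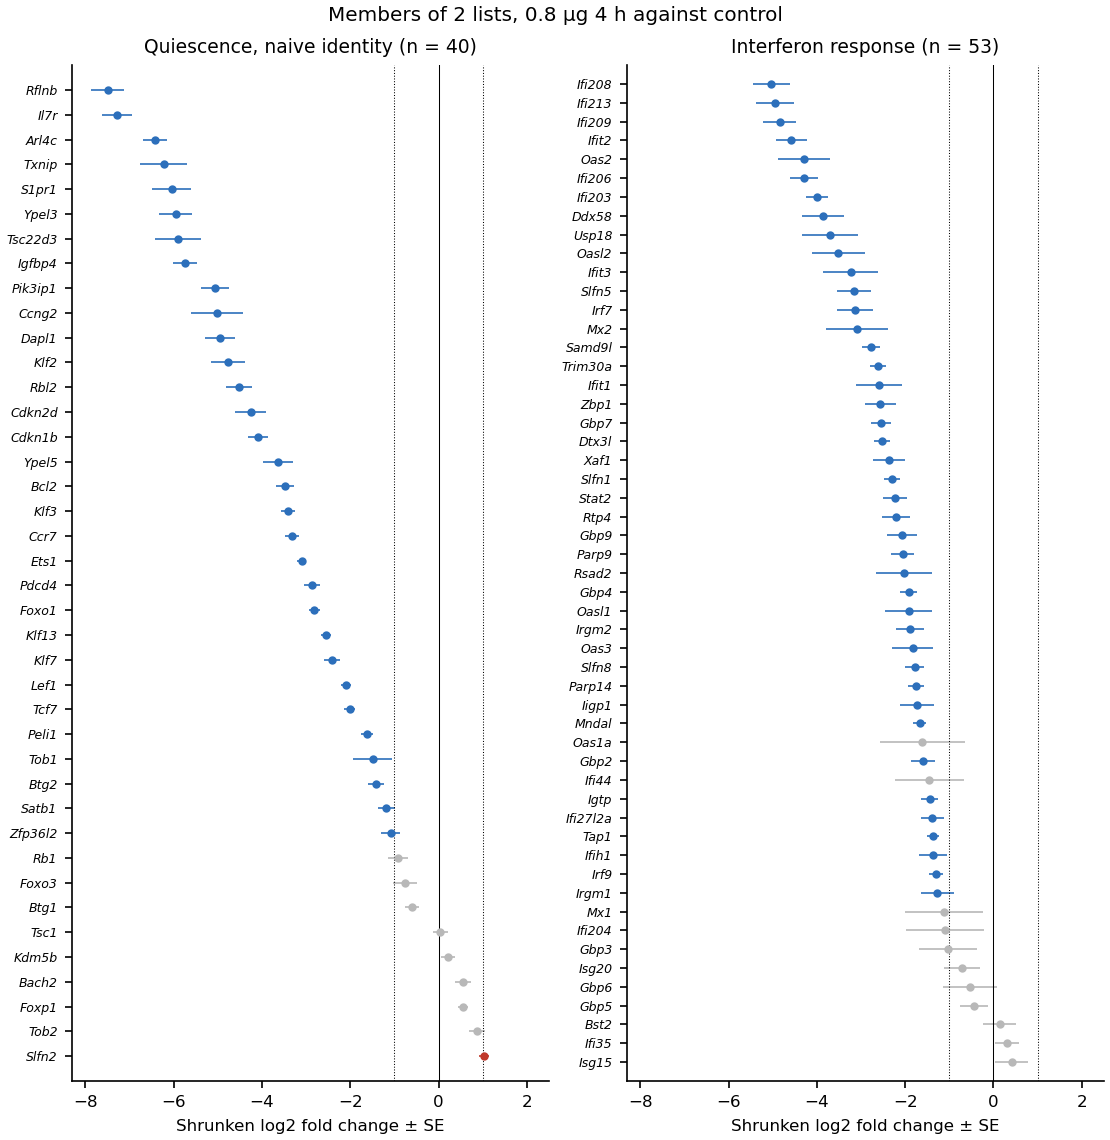
Shrunken log2 fold change of 0.8 µg 4 h against control (x) for 40 of the 41 quiescence and naive identity genes (left) and 53 of the 54 interferon response genes (right), with the standard error as a bar and dotted lines at 1 in each direction. Blue marks members called lower (31 and 42 of those shown), red the member called higher (Slfn2, left) and grey those not called.

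Interferon response genes were lower as a body. Of 54 tested, 43 were called lower and 0 higher, beside 23.4% and 17.3% of all genes, with a median of -2.04. Several PYHIN genes of the Ifi200 cluster, DNA sensors and their relatives, were among those with large losses, while Mndal of the same cluster fell by 1.67. Ifi208 had 512, 613 and 505 in control and 15.1, 14.5 and 11.9 at 0.8 µg 4 h (-5.03 ± 0.42). Ifi203 had 1866, 2143 and 1887 in control and 140, 103 and 110 at 0.8 µg 4 h (-3.99 ± 0.25). Ifi213 (-4.94 ± 0.44) and Ifi209 (-4.85 ± 0.37) were alike, and the antiviral effector Ifit2 fell by 4.58. The transcription factor Irf7, which amplifies the type I interferon response, had 83.5, 151 and 98.5 in control and 12.1, 15.8 and 6.47 at 0.8 µg 4 h (-3.14 ± 0.40). Stat2, given above, is a subunit of the interferon-activated factor ISGF3. Isg15 (0.41 ± 0.38) and Bst2 (0.14 ± 0.38) were not called, and their libraries overlapped between the groups. Of the 54, edgeR and limma also called 0 higher, and 0 were higher at an unadjusted p under 0.05 in DESeq2.

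The promoters of this list were searched on both strands for GAAA, any 2 bases and GAAA again, letters that the interferon-stimulated response element contains. They stood in 22 of the 39 promoters of the list in the RefSeq table (56.4%) and in 3.04% of all 27025 promoters. The Stat2 promoter at chr10:128270248-128270497 and the Ifi208 promoter at chr1:173673415-173673664 (GRCm38.p6, plus strand, outside annotated genes) are shown because they belong to a regulator of the response and to its most reduced member, with the letters in capitals.
Stat2: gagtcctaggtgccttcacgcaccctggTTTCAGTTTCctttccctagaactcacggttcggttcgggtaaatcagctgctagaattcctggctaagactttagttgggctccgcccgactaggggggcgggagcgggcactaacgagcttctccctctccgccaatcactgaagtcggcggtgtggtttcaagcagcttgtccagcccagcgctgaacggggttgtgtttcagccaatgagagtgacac
Ifi208: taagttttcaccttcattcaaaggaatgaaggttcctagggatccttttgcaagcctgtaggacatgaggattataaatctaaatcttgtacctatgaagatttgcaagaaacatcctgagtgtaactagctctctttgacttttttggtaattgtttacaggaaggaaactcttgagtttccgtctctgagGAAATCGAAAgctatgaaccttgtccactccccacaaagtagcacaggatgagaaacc
Of the interferon response genes, 17 of the 22 whose promoter holds these letters were called lower, with a median log2 fold change of -1.86, and 14 of the 17 without them, with a median of -2.37. Over all genes, they were in 3.46% of promoters of called lower genes, 2.17% of called higher genes and 2.79% of genes not called.

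Antigen presentation by MHC class I went partly with the interferon genes. Of 19 genes, 7 were called lower and 3 higher, beside 23.4% and 17.3% of all genes. The peptide transporter Tap1 (-1.36 ± 0.13) and Tap2 (-2.28 ± 0.34) and the transactivator Nlrc5 (-1.07 ± 0.16, or -0.99 and not called without control replicate 2) fell, as did the immunoproteasome subunits Psmb8 (-1.47), Psmb9 (-2.46) and Psmb10 (-1.35). The classical heavy chains H2-K1 (-0.65 ± 0.13) and H2-D1 (-0.51 ± 0.12) had smaller values under the threshold. Those that rose, Canx (2.25 ± 0.11), Calr (1.69 ± 0.13) and Erap1 (1.77), are enzymes and chaperones of the endoplasmic reticulum.

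Ribosome biogenesis, the production of ribosomal RNA and its assembly, had 59 of 60 members called higher and 0 lower, beside 17.3% and 23.4% of all genes, with a median of 2.78. edgeR and limma called 59 higher too, and none of the 60 was lower at an unadjusted p under 0.05. Rrp1b had 202, 208 and 214 in control and 2852, 2896 and 2847 at 0.8 µg 4 h (3.78 ± 0.10), and Npm1 (nucleophosmin) 1413, 1455 and 1356 in control and 10018, 10049 and 10179 at 0.8 µg 4 h. Ppan (3.61 ± 0.16), Nolc1 (3.58 ± 0.14) and the RNA polymerase I subunit Polr1b (3.29 ± 0.21) rose by similar amounts. The member not called was the helicase Ddx52, at 245, 234 and 304 in control and 434, 410 and 438 at 0.8 µg 4 h (0.72 ± 0.14). Few genes of the ribosomal proteins themselves were called. Of 33 small-subunit genes 1 was called (Rps27l, 1.86 ± 0.15) and of 48 large-subunit genes 0, with medians of -0.10 and 0.16. At an unadjusted p under 0.05 and with no fold threshold, 9 small-subunit genes were higher and 10 lower, and 19 large-subunit genes were higher and 8 lower. edgeR and limma called 0 large-subunit genes with the threshold.

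MYC and related factors bind the E-box CACGTG, a palindrome, and promoters were searched for it. It was in 6.05% of all promoters, 12.3% of those of called higher genes (215 of 1752), 7.26% of called lower genes (170 of 2343) and 8.06% of genes tested and not called. Within the ribosome biogenesis list it stood in 4 of 53 promoters (7.55%). The promoters of Rrn3, an initiation factor of RNA polymerase I, and of Nop2, a methyltransferase of ribosomal RNA, are shown as 2 that hold it, with the E-box in capitals. They lie at chr16:13780449-13780698 and chr6:125131633-125131882 (GRCm38.p6, plus strand, outside annotated genes).
Rrn3: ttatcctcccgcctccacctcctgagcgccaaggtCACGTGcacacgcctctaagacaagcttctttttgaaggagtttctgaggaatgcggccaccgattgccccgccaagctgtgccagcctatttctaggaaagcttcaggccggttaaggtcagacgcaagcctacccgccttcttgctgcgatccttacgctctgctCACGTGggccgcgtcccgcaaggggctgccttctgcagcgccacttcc
Nop2: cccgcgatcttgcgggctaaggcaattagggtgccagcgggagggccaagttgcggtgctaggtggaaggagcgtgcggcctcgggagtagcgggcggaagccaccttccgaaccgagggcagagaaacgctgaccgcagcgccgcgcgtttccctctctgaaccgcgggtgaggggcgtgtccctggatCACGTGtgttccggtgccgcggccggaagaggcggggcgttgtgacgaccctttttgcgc
Rrn3 had 76.3, 102 and 82.8 in control and 319, 291 and 329 at 0.8 µg 4 h (1.83 ± 0.17), and Nop2 had 95.9, 56.8 and 95.6 in control and 736, 784 and 792 at 0.8 µg 4 h (3.20 ± 0.17). Both were among the 59 members called higher, most of which lack the letters in this window.

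Genes that feed protein synthesis also rose. Aminoacyl-tRNA synthetases, which charge tRNAs, had 20 of 22 members higher and 0 lower with a median of 2.06, and the exceptions were Qars (-0.17 ± 0.15) and Dars (0.88 ± 0.15). Eprs went from 600, 567 and 537 to 3393, 3166 and 3495 (2.55 ± 0.09). Translation factors had 29 of 45 higher and 1 lower, with Eif5a at 327, 307 and 317 in control and 2794, 3205 and 3052 at 0.8 µg 4 h (3.24 ± 0.10) and the cap-binding protein Eif4e at 2.61 ± 0.14. The member called lower, Eif4ebp2 (-1.03 ± 0.23), encodes an inhibitor of Eif4e, and its call was lost without control replicate 3 (-0.96) or without 0.8 µg 4 h replicates 1 (-0.91) or 3 (-0.86). The elongation factors Eef1a1 (-0.02 ± 0.07) and Eef2 (0.14 ± 0.11) were not called. Chaperones had 30 of 35 higher and 0 lower (also 0 at an unadjusted p under 0.05) with a median of 2.02, led by the mitochondrial Hspd1, from 179, 241 and 127 to 2183, 2456 and 2429 (3.63 ± 0.22). Of 37 proteasome genes, 24 were higher and 3 lower, beside 17.3% and 23.4% of all genes. The 3 were the immunoproteasome subunits named above, and Psme3, a nuclear activator of the proteasome, rose most (3.08 ± 0.16).

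Nutrient transport and biosynthesis rose as well. Of 24 transporters 15 were higher and 0 lower (1 at an unadjusted p under 0.05 in DESeq2, and 0 by edgeR or limma), with a median of 1.65. The arginine carrier Slc7a1 had 235, 276 and 234 in control and 2818, 2703 and 2567 at 0.8 µg 4 h (3.43 ± 0.11), and the leucine carrier Slc7a5 9.28, 13.2 and 14.3 in control and 132, 169 and 182 at 0.8 µg 4 h (3.59 ± 0.37). The folate carrier Slc19a1 rose by 4.15 ± 0.20 and the lactate and pyruvate carrier Slc16a1 by 3.56 ± 0.17. The glucose carriers did not share in this: Slc2a1 had 51.5, 32.5 and 55.7 in control and 62.6, 61.9 and 42.1 at 0.8 µg 4 h (0.26 ± 0.28), and Slc2a3 -0.64 ± 0.34. Of 19 glycolytic genes 9 were higher and 3 lower, beside 17.3% and 23.4% of all genes. Hk2, the inducible hexokinase, had 12.4, 2.03 and 2.85 in control and 306, 339 and 308 at 0.8 µg 4 h (5.34 ± 0.41), Ldha rose by 2.10 ± 0.13 and Pkm by 1.42 ± 0.11, whereas Gpi1 was level (0.09 ± 0.15). Gapdh, which has many near-identical copies in the genome, had few counts here and its value is uncertain.

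Polyamine and nucleotide synthesis had 23 of 28 genes higher and 2 lower, with a median of 1.95. Odc1, the first enzyme of polyamine synthesis, had 7.21, 4.06 and 5.71 in control and 197, 228 and 200 at 0.8 µg 4 h (4.93 ± 0.36). Srm (spermidine synthase) rose by 3.98 ± 0.18 and Cad, which opens pyrimidine synthesis, by 3.15 ± 0.19. The CTP synthases parted, with Ctps at 3.15 ± 0.19 and Ctps2 at -3.20 ± 0.33, the latter from 144, 174 and 143 to 26.2, 6.59 and 12.9. Of 20 one-carbon and ATF4-related genes 10 were higher and 3 lower, beside 17.3% and 23.4% of all genes. Psat1, of serine synthesis, rose from 33.0, 29.4 and 41.4 to 488, 541 and 542 (3.89 ± 0.20), the mitochondrial enzymes Shmt2 and Mthfd2 by 3.43 ± 0.15 and 2.23 ± 0.12, and the factor Atf4 by 2.12 ± 0.13. Ddit4, an inhibitor of mTORC1 that stress and glucocorticoids induce, went from 907, 1288 and 538 to 125, 116 and 173 (-2.60 ± 0.41).

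Of 27 sterol genes, 10 were higher, 3 lower and 14 not called, beside 17.3% higher and 23.4% lower among all genes. Cyp51 had 119, 110 and 126 in control and 831, 667 and 1107 at 0.8 µg 4 h (2.85 ± 0.22). The cholesterol exporter Abcg1 fell by 5.29 and Abca1 was at least 9.52-fold lower. Among 76 nuclear genes of oxidative phosphorylation 23 were higher and 3 lower, beside 17.3% and 23.4% of all genes, with a median of 0.70. Cytochrome c (Cycs, 2.72 ± 0.26) and Ndufa12 (2.37 ± 0.15) rose most. When libraries were scaled by total counts, 13 of these were called higher. Genes encoded by the mitochondrion had 0 of 10 called in either direction by DESeq2 and by limma, 1 called higher by edgeR, and 4 higher and 1 lower at an unadjusted p under 0.05.

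**Figure D4:**
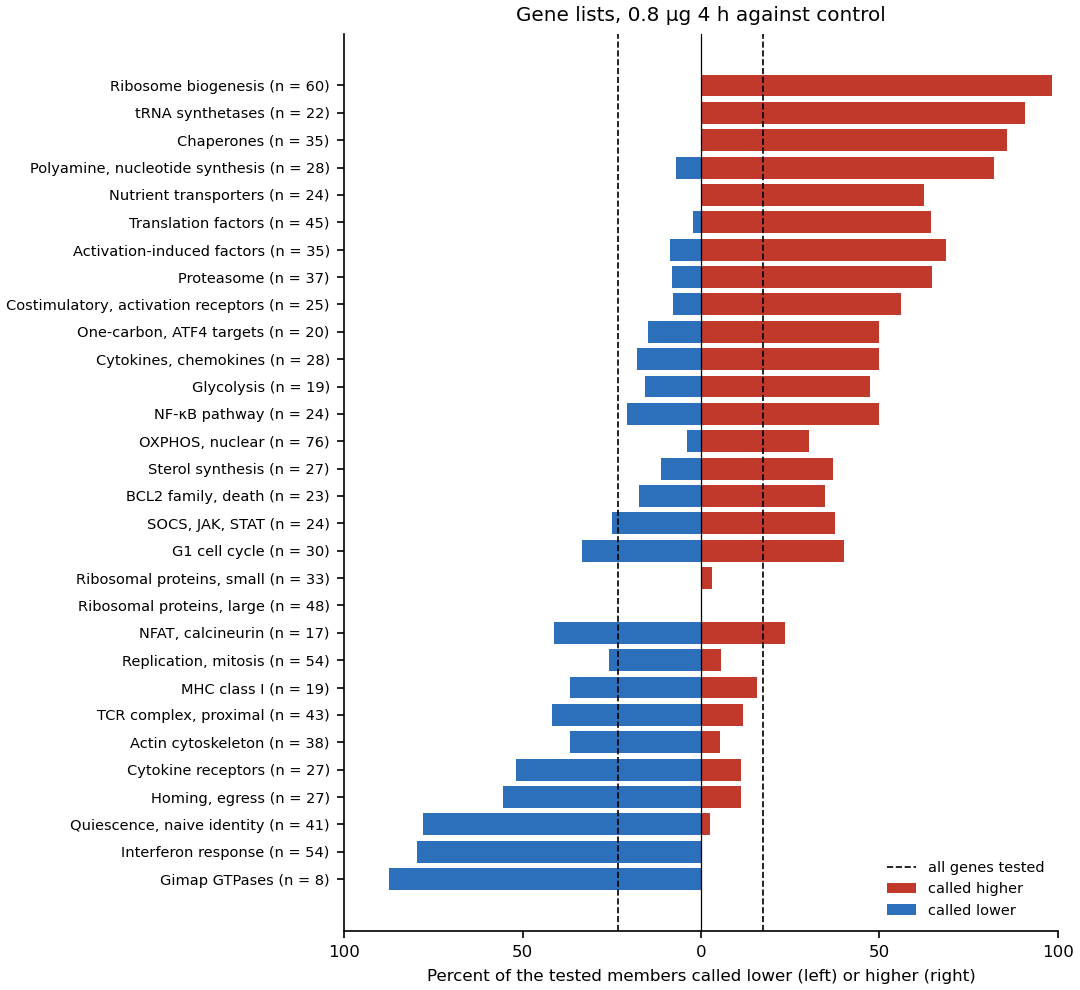
Percent of the tested members of each gene list (rows, with the number tested) that were called lower at 0.8 µg 4 h (blue, to the left) or higher (red, to the right). Dashed lines mark the shares among all genes tested, 23.4% lower and 17.3% higher; ribosome biogenesis stands at the top and Gimap GTPases at the bottom.

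Cell-cycle genes moved in both directions. Of 30 G1 regulators 12 were higher and 10 lower (40.0% and 33.3%, against 17.3% and 23.4% of all genes). The cyclins parted, with Ccnd2 up and Ccnd3 from 741, 944 and 819 to 83.8, 94.8 and 160 (-2.86 ± 0.17). Their kinases Cdk4 (2.13 ± 0.16) and Cdk6 (2.05 ± 0.13) rose. Of 54 replication and mitosis genes 3 were higher and 14 lower, beside 17.3% and 23.4% of all genes, with a median of -0.63 (-0.32 with genes at the floor at their bound). Pcna rose by 1.36 ± 0.14, while Top2a fell from 78.3, 89.2 and 128 to 20.2, 39.5 and 17.3 (-1.87 ± 0.33) and Mki67, the Ki-67 proliferation antigen, from 22.7, 33.5 and 51.4 to 11.1, 19.8 and 0 (-1.60 ± 0.54, or -1.48 and not called when only the 6 libraries were fitted). The number of these genes called lower was 7 when only the 6 libraries were fitted, and also 7 with limma on the deposited log2 values.

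Survival genes of the BCL2 family had 8 of 23 members higher and 4 lower (34.8% and 17.4%, against 17.3% and 23.4% of all genes). Bcl2l1, which encodes BCL-XL, had 34.0, 37.5 and 30.0 in control and 936, 880 and 858 at 0.8 µg 4 h (4.65 ± 0.22), in the opposite direction to Bcl2. Bcl2a1b rose by 3.72 ± 0.44, though its near-identical copies may share reads. Of the death-promoting members, Bcl2l11 (BIM) rose from 325, 291 and 291 to 2816, 2852 and 2524 (3.16 ± 0.14), while Bbc3 (PUMA, -2.96 ± 0.66) and Bad (-2.75 ± 0.48) fell. Mcl1 was close to level (-0.27 ± 0.12).

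Lineage regulators moved in both directions, with 12 of 34 higher and 9 lower, beside 17.3% and 23.4% of all genes. Eomes, a T-box factor of cytotoxic and memory cells, had 2.06, 9.13 and 1.43 in control and 272, 92.2 and 173 at 0.8 µg 4 h (4.96 ± 0.46). Tbx21 (T-bet) rose from 9.28, 11.2 and 4.28 to 164, 150 and 135 (3.93 ± 0.37). Tox2 (3.37 ± 0.49) and Myb (3.27 ± 0.18) rose as well. Eomes is also a marker of NK cells, whose 8 markers summed to 20.9 to 43.3 CPM in control and 28.0 to 76.1 CPM at 0.8 µg 4 h, a sum that includes Eomes itself. Of the other NK cell markers, Klrd1 (-5.79) and Nkg7 (-1.43) were called lower, and Ncr1 and Klrb1c were at 0 in all 0.8 µg 4 h libraries. Prdm1 (BLIMP-1) fell from 40.2, 25.4 and 62.8 to 1.01, 1.32 and 5.39 (-3.53 ± 0.55), and Maf by 2.17. Gata3 did not differ (0.20 ± 0.15). Foxp3, the factor of regulatory T cells, had 56.7, 14.2 and 45.7 in control and 3.03, 6.59 and 2.16 at 0.8 µg 4 h (-2.94 ± 0.57). Of 6 regulatory T cell markers with counts, 5 were lower (Foxp3, Ikzf2, Ctla4, Nrp1 and Izumo1r) and Il2ra was higher. Their sum was 103 to 198 CPM in control and 305 to 498 CPM at 0.8 µg 4 h. That rise came from Il2ra, an activation receptor given above, with 74, 25 and 35 counts in control and 1327, 1239 and 925 at 0.8 µg 4 h. The part of regulatory T cells in the lower counts of Ctla4, Maf and Prdm1 was not tested.

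Remaining groups were smaller or mixed. Among 25 chromatin modifiers, 10 were higher and 4 lower, beside 17.3% and 23.4% of all genes. The DNA methyltransferase Dnmt3a had 452, 360 and 440 in control and 3428, 3098 and 3121 at 0.8 µg 4 h (2.94 ± 0.11), the H3K27 demethylase Kdm6b rose by 2.95 ± 0.14, and Tet1, an oxidase of methylcytosine, was at least 48.4-fold lower. Of 38 actin and cytoskeleton genes 14 were lower and 2 higher, beside 23.4% and 17.3% of all genes. Vim (vimentin) fell from 605, 547 and 671 to 23.2, 21.1 and 15.1 (-4.87 ± 0.22), Coro1a by 3.01 and Rac2 by 2.87, while Marcksl1 rose by 5.04 ± 0.37. Of 33 genes of mRNA decay 8 were lower and 4 higher (24.2% and 12.1%, against 23.4% and 17.3% of all genes), with the RNase Zc3h12a (Regnase-1) up by 2.03 ± 0.28 and its opponent Arid5a at -2.27 ± 0.26. Among 16 common reference genes, 6 were called higher, among them Tfrc (4.45) and Hprt (1.12, or 0.97 and not called with scaling by total counts), and 3 when libraries were scaled by total counts. Of 15 genes that tissue dissociation can induce, 5 were higher and 3 lower (33.3% and 20.0%, against 17.3% and 23.4% of all genes).

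The low dose at 4 h was then set against the 3 groups that share its dose, at 12 and 24 h, or its time, in the same fit. Of the genes named by rank or as the study's activation genes, 66 in all, 19 differed from the 80 µg 4 h group (7 higher and 12 lower at the low dose), beside 5.85% of all 10848 genes tested there. These genes were largely chosen for their values at 0.8 µg 4 h or by the study, so their share is a description and is not read against that of all genes. Against 0.8 µg 12 h, 34 differed (19 higher, 15 lower) beside 20.5%, and against 0.8 µg 24 h, 54 differed (29 higher, 25 lower) beside 37.3%. The sort gate changed with time, from Blue+Red− at 4 h to Blue+Red+ and Blue−Red+, so that time and gate cannot be told apart.

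Genes differed in how the low dose stood to the high one. Cells of both doses at 4 h were sorted through the same Nr4a3-Blue+Red− gate, so levels alike between doses hold for cells selected in this way. Nr4a1 had a mean of 2175 ± 295 (SD, n = 3) at the low dose and 2008 ± 187 at 80 µg, and the difference of 0.11 was not significant (DESeq2 adjusted p = 0.93). Ncl (-0.02), Ccnd2 (-0.20) and Mir155hg (-0.21) were also level with the high dose. Irf8 reached 3456 ± 750 at the low dose, between 65.2 ± 29.8 in control and 12128 ± 420 at 80 µg, and Irf4 1118 ± 275, between 12.6 ± 1.51 and 3361 ± 118. The low dose was below the high dose for both, with log2 differences of -1.80 for Irf8 and -1.58 for Irf4. Il2ra (-1.65) and Sema7a (-2.41) followed the same order. Icos was at its control level with the low dose, 259 ± 73.7, and at 1263 ± 164 with 80 µg (difference -2.27). Lad1 (2.16), Tnnt2 (2.93), Icam5 (2.20) and Tnfrsf9 (1.35) were higher at the low dose. Tnfrsf9 had 1944 ± 125 against 743 ± 50.6. Stat4 was lower than at 80 µg (5.24 ± 4.46 against 49.2 ± 3.54, difference -2.87), as was Il7r (14.5 ± 3.44 against 64.5 ± 11.4, difference -2.04). The study picked Tnfrsf4, Icos, Irf8, Tnip3 and Stat4 as genes of strong signalling in part on these libraries. It also used a separate anti-PD1 experiment in mice and melanoma patients given nivolumab. Their differences between doses are therefore not independent evidence.

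**Figure D5:**
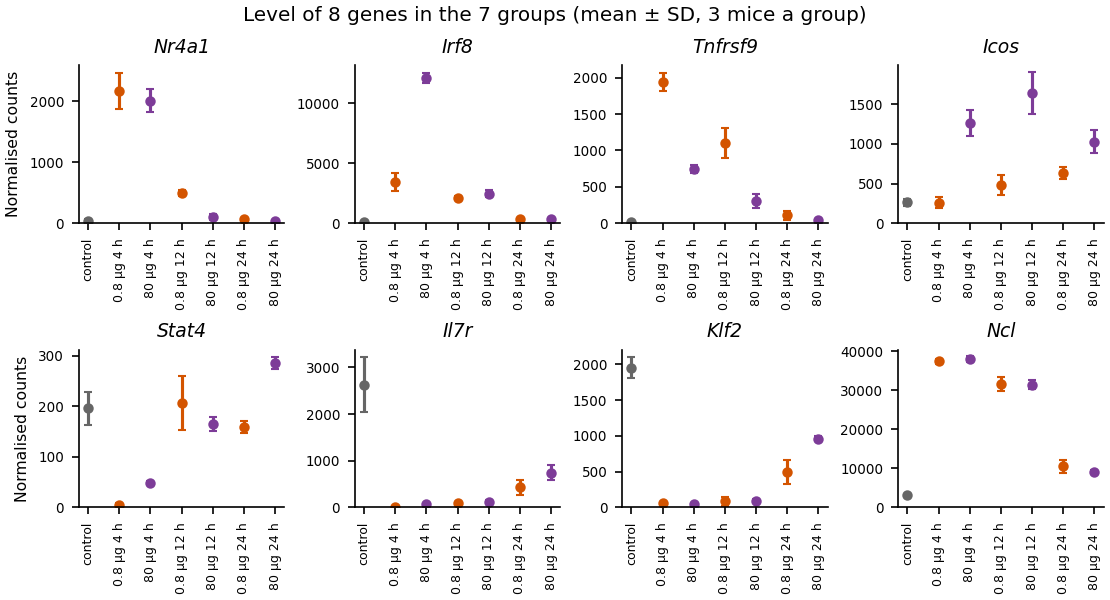
Mean normalised counts ± SD of 3 mice (y, linear axes from 0) in the 7 groups (x: control, then the 0.8 µg and 80 µg doses at 4 h, 12 h and 24 h) for 8 genes; orange marks 0.8 µg, purple 80 µg and grey control. Nr4a1 and Ncl are alike at both doses at 4 h, Irf8 and Icos are lower with 0.8 µg than with 80 µg, Tnfrsf9 is higher with 0.8 µg, and Stat4 at 0.8 µg 4 h is the lowest of the groups.

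Several lists had no member called between the doses at 4 h. Ribosome biogenesis, tRNA synthetases and chaperones had 0 members of 60, 22 and 35 called between the doses in either direction by DESeq2 and by edgeR, beside 2.74% higher and 3.12% lower at the low dose among all genes. At an unadjusted p under 0.05, 11, 2 and 7 members of these lists were lower at the low dose and 1, 2 and 1 were higher. The lists of translation factors, ribosomal proteins, NFAT and calcineurin genes, replication and mitosis, oxidative phosphorylation, mitochondrial genes and reference genes also had 0 called by both tools, with 0 to 8 members each way at an unadjusted p under 0.05. Immediate-early factors had 13 of 33 lower and 3 higher at the low dose, and interferon response genes 18 of 53 lower and 1 higher. TCR complex and proximal genes had 11 of 43 higher and 1 lower, and sterol genes 12 of 27 higher and 0 lower at the low dose. Quiescence genes were mixed, with 6 of 41 higher and 8 lower. Against 0.8 µg 12 h, where 7.98% of all genes were higher and 12.6% lower at 4 h, immediate-early factors had 21 of 35 higher at 4 h and 0 lower, and NF-κB genes 15 of 24 higher and 1 lower. Against 0.8 µg 24 h, where 13.7% were higher and 23.6% lower at 4 h, ribosome biogenesis had 58 of 60 higher at 4 h, and interferon response genes 53 of 54 lower.

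Single genes show this course. Cd69 was at 2234 ± 232 at 4 h, 139 ± 42.4 at 12 h and 237 ± 17.3 at 24 h, and its level at 4 h was above both later groups by 3.97 and 3.22 on the log2 scale. Nr4a2 had 478 ± 71.4, 28.4 ± 6.38 and 8.29 ± 4.35 at these times. Myc was at 918 ± 135 and then at 187 ± 68.6 and 34.7 ± 6.54. Stat4 was near absent at 4 h and stood at 206 ± 53.6 at 12 h and 159 ± 10.9 at 24 h, beside 196 ± 32.7 in control. Klf2 (62.6 ± 18.8 at 4 h) did not differ from the 12 h group (87.9 ± 61.5, DESeq2 adjusted p = 0.38) and was at 497 ± 170 at 24 h. S1pr1 likewise did not differ from 12 h (15.7 ± 14.1 and 14.3 ± 8.10) and was at 337 ± 134 at 24 h. Il7r was at 14.5 ± 3.44, then 95.1 ± 11.1 and 428 ± 160, and the log2 differences of 4 h from the later groups were -2.59 and -4.72.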

How the data were processed

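Splenic CD4+ T cells were profiled in 21 libraries, 3 mice in each of 7 groups. The authors made the deposited counts by trimming reads, aligning them with STAR (version 2.5.2a) to the mouse genome (GRCm38, mm10) and counting reads per gene with HTSeq. The annotation release and the strand setting, like whether molecular identifiers were counted, are not given in the sources used here. The authors also deposited log2 values made with the regularised log transformation of DESeq2, which served one alternative only.

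Genes with at least 10 counts over all libraries entered DESeq2 1.42.0 (R 4.3.3), with all 7 groups in the model, Wald tests, shrinkage with a normal prior and Benjamini-Hochberg adjustment over all genes tested. Some genes with low counts get no adjusted p from DESeq2 and were left out of the counts. The 80 µg 4 h, 0.8 µg 12 h and 0.8 µg 24 h groups were compared with 0.8 µg 4 h by contrasts in the same fit. The test code was checked on simulated data. Genes were named as follows: the 15 largest fold changes each way (called, groups apart, mean over the 6 libraries of 20 normalised counts or more), the 10 largest differences of means each way, the 8 narrowest intervals where no difference was significant and the mean was 500 or more, the study's activation and strong-signal genes, and members of the lists; a few of these genes are not reported here. The comparison, the lists and the named genes were chosen with earlier results of these data known. Promoters are the 250 bases before the first start that RefSeq lists for a gene (GRCm38.p6), matched by symbol.

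Alternatives were edgeR 4.0.16, limma 3.58.1 on the deposited log2 values, other size factors and count filters, thinned libraries, a sex term, a replicate block, other thresholds and each library left out. No library was a copy of another. Mice were separate animals, so p-values measure the spread between animals, and 3 per group, with totals from 2352800 counts, limit what could be seen in weakly expressed genes.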

Additional observations from a re-analysis of the deposited data

Results flagged for a closer look

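For 9 genes that the study uses as measures of activation or of strong signalling, the change from control at 0.8 µg 4 h was set against that in the 3 groups that share its dose or its time, by a test of the difference itself (DESeq2 contrast, adjusted over all genes). Each value is the log2 change at 0.8 µg 4 h minus that in the other group, with 3 mice per group.

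Against 80 µg 4 h, the change was smaller or more negative at the low dose in Icos (-2.27), Tnip3 (-2.13), Irf8 (-1.8), Il2ra (-1.65), Tnfrsf4 (-1.04) and Stat4 (-2.87), and larger in Tnfrsf9 (1.35). The Tnfrsf4 difference was -0.94, under the fold threshold, without 0.8 µg 4 h replicate 3. Nr4a1 and Cd69 did not pass this test. Since the study picked Icos, Irf8, Tnfrsf4, Tnip3 and Stat4 in part on these libraries, their differences between doses are a description.

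Against 0.8 µg 12 h, Cd69 (3.97) and Nr4a1 (2.06) were higher at 4 h, Irf8 (0.715) and Il2ra (0.568) were higher by less than the fold threshold, Icos (-0.887) and Tnfrsf4 (-0.568) were lower by less than it, and Stat4 was lower (-4.93). The Icos difference was -1.10 without 0.8 µg 4 h replicate 2 and -1.09 without 0.8 µg 12 h replicate 3, past the threshold in both. Tnfrsf9 and Tnip3 did not pass.

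Against 0.8 µg 24 h, Nr4a1 (4.69), Tnfrsf9 (4.02), Irf8 (3.31), Cd69 (3.22), Tnip3 (3.04), Il2ra (2.3) and Tnfrsf4 (1.7) were higher at 4 h and Icos (-1.28) and Stat4 (-4.55) lower. The sort gate differed between the 4 h, 12 h and 24 h groups, so time and gate cannot be told apart.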

How the results depend on the processing

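The count of 5502 called genes lay between 4745 (limma on the deposited log2 values) and 5707 (edgeR) over the other tools, scalings, filters and models, and between 5226 and 5257 when single libraries were left out (2210 to 2297 higher, 2955 to 3034 lower). With a log2 fold change beyond 2, 2764 genes were called, 943 higher and 1821 lower, since the threshold is stricter, and with the adjusted p alone 7376. No alternative called a gene in the opposite direction. Scaling by total counts moved the median log2 fold change of all genes by -0.15 and the share of higher calls from 42.5% to 36.3%. Values near 0 given above, such as the medians of the ribosomal protein genes and the genes called level, hold relative to the scaling used. Of the named genes, 17 to 19 differed from 80 µg 4 h, 30 to 36 from 0.8 µg 12 h and 53 to 55 from 0.8 µg 24 h when single libraries were left out.

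Replicate numbers did not pair the control mice with the 0.8 µg 4 h mice: deviations from the group means of libraries with the same number correlated at -0.076, 0.019 and -0.058 over 8762 genes. Between the 0.8 µg 4 h mice and the other groups these correlations ran from 0.0067 to 0.287 (80 µg 4 h), from 0.0091 to 0.213 (0.8 µg 12 h) and from -0.057 to 0.077 (0.8 µg 24 h), and in no comparison were all 3 pairs above 0.1. With the replicate block 5446 genes were called (2319 higher, 3127 lower), and 18, 33 and 54 of the named genes differed from the 80 µg 4 h, 0.8 µg 12 h and 0.8 µg 24 h groups. At 3 mice per group, genes at or under 3 counts per library allow no statement on their change.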
